A study of Mus musculus with 9 samples.

Results

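Fibrillar collagens are the rope-like proteins that give connective tissue and tumor stroma their tensile strength, and the genes described here are the 10 listed fibrillar and fibril-associated chains, picked by symbol from the 55403 gene and transgene entries of a count table. Collagen chains are wound into a triple helix, made in the endoplasmic reticulum, trimmed after secretion and packed side by side into fibrils. Type I is the bulk collagen of most connective tissues, type III joins it in compliant tissue, types V and XI sit inside fibrils and set their start and thickness, and the fibril-associated collagens lie on fibril surfaces. In mammary tumors these chains are known mainly as products of fibroblasts.

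The libraries came from mammary tumors of female C57BL/6 mice carrying a human MUC1 transgene (MUC1.Tg) and the polyoma middle T oncogene under the MMTV promoter (MMTV-PyMT), which is active mainly in mammary epithelium. Both transgenes were present in every group. In 5 libraries, called KO, the mice were Hspa1a/Hspa1b-/-, aged 120 to 125 days, and in 4 libraries, called WT, they were Hspa1a/Hspa1b+/+, aged 122 to 132 days. Hspa1a and Hspa1b encode HSP72, the stress-inducible HSP70 chaperone, and the series title names its support of matrix production as the question. Tumors had been digested with collagenase and trypsin before RNA extraction, so the values describe cells recovered from the digest, and fewer cells of a type cannot be told apart from less RNA per cell.

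Libraries held 4410399 to 6221181 counts on genes. Hspa1b stood at 0 to 0.657 CPM in KO and 28.8 to 81.1 CPM in WT (CPM is counts scaled to library size), and Hspa1a at 0.163 to 1.64 CPM in KO and 3.99 to 9.77 CPM in WT. Luminal epithelial markers were present throughout, with Krt18, a luminal keratin, at 520 to 718 CPM in KO and 607 to 1174 CPM in WT. Some libraries stood apart from the rest. KO 3 and WT 1 had the lowest shares of unmapped fragments, 11.0% and 12.2%. The other KO libraries had 19.7% to 21.8% and the other WT libraries 15.2% to 27.1%. WT 4 had the highest unmapped share, 27.1%, and the highest multimapped share, 9.53%. KO 3 had the highest share of fragments without a feature, 50.4%. WT 1 and WT 4 had high milk protein counts, with the casein Csn1s2a at 513 and 1267 CPM against at most 6.48 CPM in WT 2 and WT 3 and 12.1 CPM in KO. The labels number the samples without naming animals. Within each group the ages differ except between WT 3 and WT 4 and between KO 3 and KO 5, so most samples came from different mice. Whether samples of equal age came from the same mouse cannot be told, and the p-values below speak of sample-to-sample spread.

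All 10 chains had enough counts to be tested. Of them 9 had negative log2 fold changes in KO, where 50.0% of the 14665 genes tested did, and the median over the chains was -0.71, against 0.00 over all genes. For 4 chains, Col1a1, Col1a2, Col5a1 and Col5a2, every KO library lay below every WT library, which held for 1.26% of all genes. None of the 10 passed the quasi-likelihood test of edgeR after Benjamini-Hochberg adjustment over all genes, which called 0.0341% of genes lower and 0.0886% in either direction. At an unadjusted p under 0.05 that test found 5 of the 10, all lower, against 4.59% of all genes lower. DESeq2 called 3 lower, Col1a1, Col1a2 and Col5a1, against 0.259% of all genes lower and 0.464% in either direction, and limma-voom called none of the 10, against 0.130% of all genes in either direction. The chains were proposed with earlier results of these data known, so these shares describe them and do not test them as a group.

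**Figure D1:**
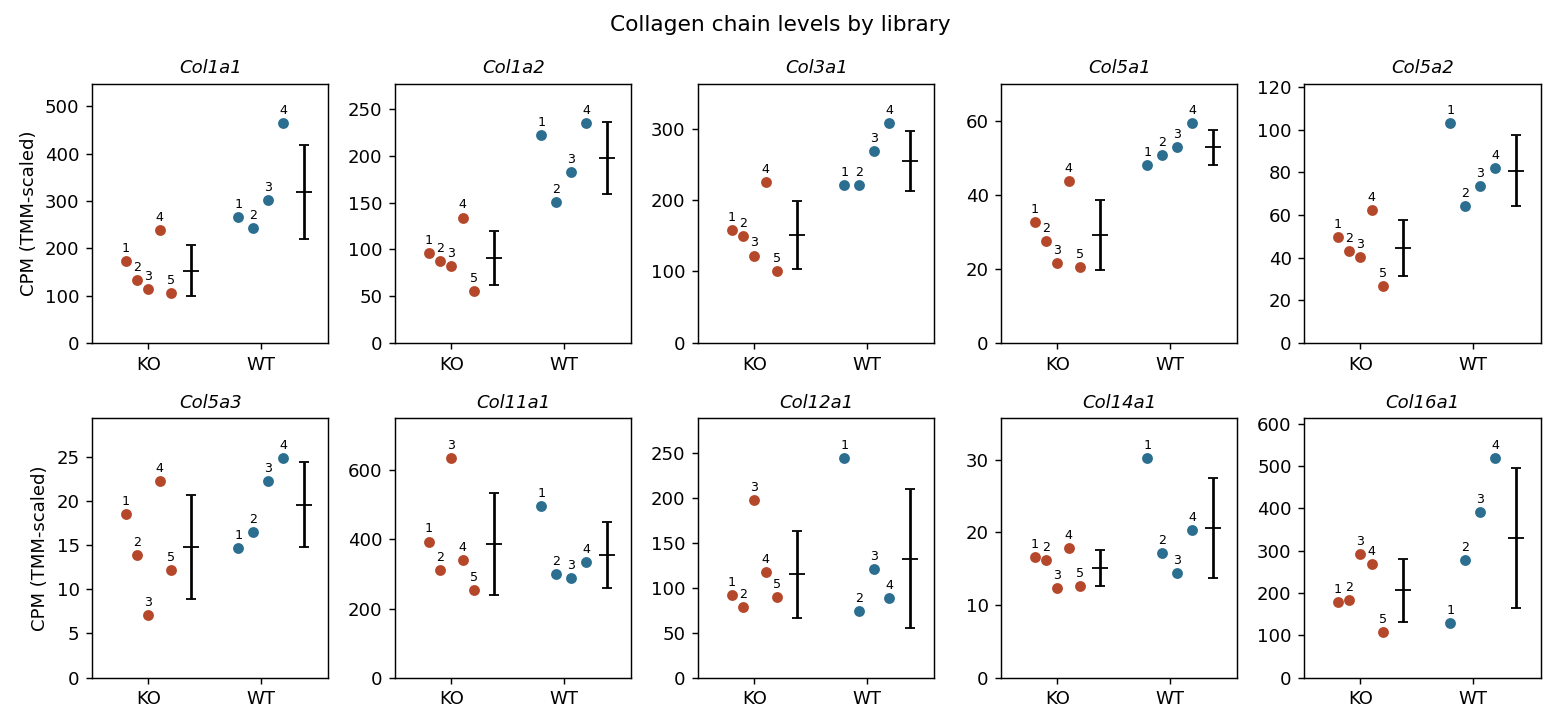
CPM (vertical axis, from 0) of each of the 10 chains in the 5 KO and 4 WT libraries. Each point is a library, labelled with its number, and the bar beside each group is the mean with the SD. KO and WT do not overlap for Col1a1, Col1a2, Col5a1 and Col5a2, whereas KO 3 and WT 1 are the highest points of their groups for Col11a1 and Col12a1.

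Type I collagen had the largest shifts among the 10 chains. It is a trimer of α1 chains (Col1a1) and an α2 chain (Col1a2), and fibrils in most tissues consist largely of it. Col1a1 (ENSMUSG00000001506.10, chromosome 11, 94936224 to 94953042, plus strand, GRCm38) stood at 172, 133, 115, 239 and 106 CPM in KO 1 to KO 5, against 265, 244, 302 and 465 CPM in WT 1 to WT 4. The groups did not overlap, and KO 4 and WT 2 were the nearest pair. The means were 153 ± 54.3 CPM in KO (SD, n = 5) and 319 ± 100 CPM in WT (SD, n = 4), and the log2 fold change was -1.06 ± 0.26 (SE; edgeR adjusted p = 0.405, DESeq2 adjusted p = 0.0359). Col1a2 (ENSMUSG00000029661.16, chromosome 6, 4504814 to 4541544, plus strand) stood at 95.9, 87.3, 82.1, 134 and 55.1 CPM in KO 1 to KO 5 and 222, 151, 183 and 235 CPM in WT 1 to WT 4. Again KO 4 was the highest KO library and WT 2 the lowest WT library. Its log2 fold change, -1.12 ± 0.23 (SE; edgeR adjusted p = 0.222, DESeq2 adjusted p = 0.00288), was the largest of the 10.

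Type III collagen, a trimer of a single kind of chain found with type I in skin, vessels and healing wounds, was shifted less. Col3a1 (ENSMUSG00000026043.18, chromosome 1, 45311538 to 45349706, plus strand) stood at 158, 150, 122, 226 and 100.4 CPM in KO 1 to KO 5 and 221, 220, 268 and 308 CPM in WT 1 to WT 4. The groups overlapped only through KO 4, which lay above WT 1 and WT 2. The log2 fold change was -0.75 ± 0.21 (SE; edgeR adjusted p = 0.531, DESeq2 adjusted p = 0.140).

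Of the type V chains, which start fibrils and limit their width, the α1 and α2 chains were separated by genotype and the α3 chain was not. Col5a1 (ENSMUSG00000026837.16, chromosome 2, 27886425 to 28039514, plus strand) stood at 32.7, 27.5, 21.7, 43.9 and 20.7 CPM in KO 1 to KO 5, against 48.1, 51.0, 53.2 and 59.5 CPM in WT 1 to WT 4. The WT libraries lay close together. The means were 29.3 ± 9.48 CPM in KO (SD, n = 5) and 53.0 ± 4.84 CPM in WT (SD, n = 4). The log2 fold change was -0.86 ± 0.21 (SE; edgeR adjusted p = 0.381, DESeq2 adjusted p = 0.0425). Col5a2 (ENSMUSG00000026042.16, chromosome 1, 45374321 to 45503282, minus strand) lies tail to tail with Col3a1, with 24614 bases between the annotated ends. It stood at 49.6, 43.0, 40.1, 62.5 and 26.8 CPM in KO 1 to KO 5 and 103, 64.4, 73.5 and 82.1 CPM in WT 1 to WT 4. KO 4 and WT 2 were again the nearest pair, and the log2 fold change was -0.86 ± 0.22 (SE; edgeR adjusted p = 0.422, DESeq2 adjusted p = 0.0667). Col5a3 (ENSMUSG00000004098.7, chromosome 9, 20770050 to 20815067, minus strand), a chain of restricted distribution, stood at 18.5, 13.9, 7.06, 22.2 and 12.1 CPM in KO 1 to KO 5 and 14.7, 16.5, 22.3 and 24.8 CPM in WT 1 to WT 4. Its groups overlapped, and KO 3 was the lowest library. The log2 fold change was -0.41 ± 0.30 (SE; edgeR adjusted p = 0.721), and -0.23 without KO 3.

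Col11a1, the α1 chain of type XI collagen, is best known from cartilage fibrils and can also join type V chains in trimers. It was the only one of the 10 with a positive log2 fold change. Col11a1 (ENSMUSG00000027966.20, chromosome 3, 114030540 to 114220718, plus strand) stood at 394, 310, 636, 342 and 254 CPM in KO 1 to KO 5 and 497, 300.1, 288 and 336 CPM in WT 1 to WT 4. The means were 387 ± 148 CPM in KO (SD, n = 5) and 355 ± 96.6 CPM in WT (SD, n = 4). KO 3 and WT 1, the libraries with the lowest unmapped shares, were the highest of their groups. The log2 fold change was 0.13 ± 0.26 (SE; edgeR adjusted p = 0.922), 0.06 with the unmapped share as a covariate, -0.13 without KO 3 and 0.33 without WT 1, so no direction can be given.

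The fibril-associated chains, whose triple helices are broken by short non-helical stretches, did not separate the genotypes. Col12a1 (ENSMUSG00000032332.17, chromosome 9, 79598991 to 79718831, minus strand), a surface component of type I fibrils, stood at 91.4, 78.5, 197, 117 and 89.8 CPM in KO 1 to KO 5 and 244, 74.4, 121 and 88.9 CPM in WT 1 to WT 4. As for Col11a1, KO 3 and WT 1 were highest, and the groups overlapped with or without them. Its log2 fold change was -0.20 ± 0.36 (SE; edgeR adjusted p = 0.905), and 0.28 without WT 1. Col14a1 (ENSMUSG00000022371.16, chromosome 15, 55307750 to 55520803, plus strand), which also binds fibril surfaces, stood at 16.6, 16.1, 12.3, 17.9 and 12.7 CPM in KO 1 to KO 5 and 30.2, 17.1, 14.5 and 20.4 CPM in WT 1 to WT 4. WT 1 and WT 4 lay above all KO libraries, WT 2 and WT 3 among them. The log2 fold change was -0.44 ± 0.22 (SE; edgeR adjusted p = 0.647), or -0.20 without WT 1. Col16a1 (ENSMUSG00000040690.15, chromosome 4, 130047840 to 130099283, plus strand), a minor fibril-associated collagen, stood at 179, 184, 292, 268 and 109 CPM in KO 1 to KO 5 and 129, 279, 391 and 519 CPM in WT 1 to WT 4. Here WT 1 was the lowest WT library, and both WT 1 and WT 2 lay within the KO range. The log2 fold change was -0.68 ± 0.37 (SE; edgeR adjusted p = 0.661), with -0.37 without WT 4 and -0.94 without WT 1.

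**Figure D2:**
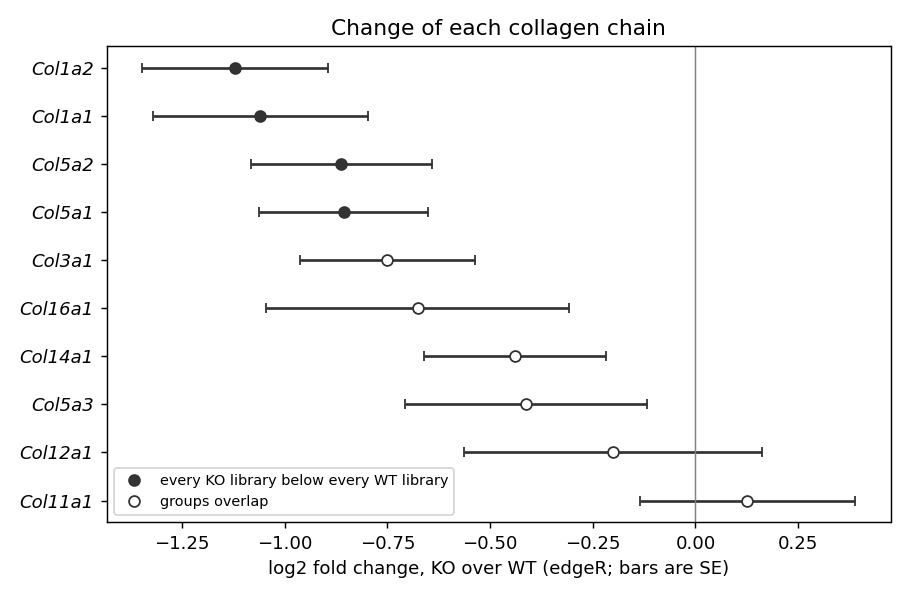
Log2 fold change of each chain, KO over WT (horizontal axis), from edgeR, with SE bars. Filled points mark chains whose KO libraries all lie below all WT libraries. The 5 leftmost chains, from Col1a2 at -1.12 to Col3a1 at -0.75, are the type I, V α1 and α2 and III chains, and only Col11a1 is above 0, at 0.13.

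Libraries differed from each other along the set in a similar way for many chains. KO 5 was the lowest of all 9 libraries for 7 of the 10 chains and KO 3 for 2, and the remaining chain, Col12a1, was lowest in WT 2. WT 4 was the highest of all for 6 chains, WT 1 for 3 and KO 3 for Col11a1. Within KO, KO 4 was highest for 7 chains. The Pearson r of each chain with the mean of the other members over the 9 libraries was 0.98 for Col1a2, 0.97 for Col5a2, 0.92 for Col3a1, 0.91 for Col1a1 and 0.90 for Col5a1. It was 0.66 for Col14a1, 0.53 for Col5a3, 0.45 for Col16a1, 0.16 for Col12a1 and 0.04 for Col11a1. These values describe the 9 libraries, share the genotype difference and library scaling, and carry no test.

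**Figure D3:**
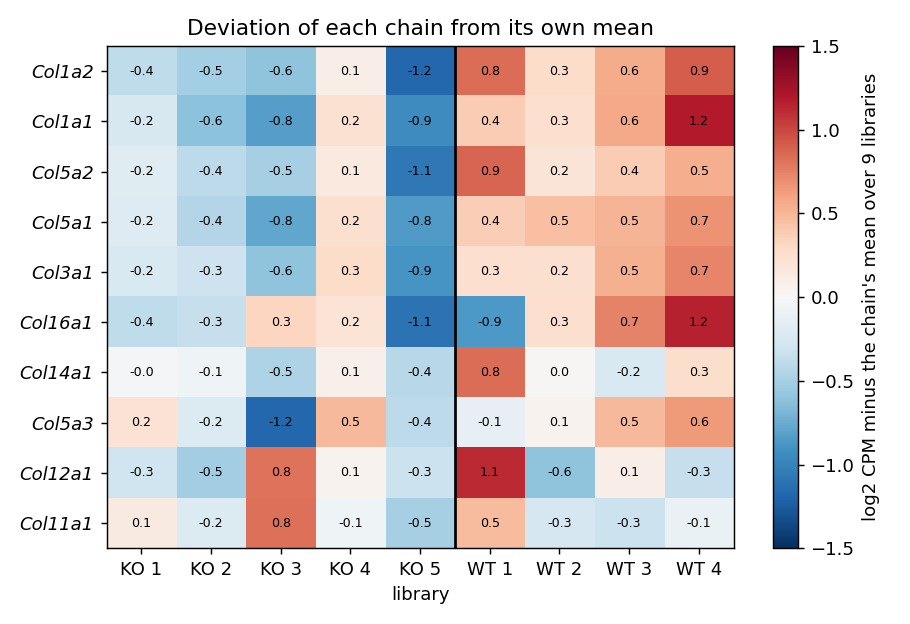
Deviation of each chain's log2 CPM from its own mean over the 9 libraries (color and printed value). Rows are chains ordered by fold change, columns are libraries with KO left of the line. The upper 5 rows are negative in KO 1, 2, 3 and 5, slightly positive in KO 4 and positive in all WT libraries, and KO 3 and WT 1 stand out in the Col12a1 and Col11a1 rows.

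Levels of different chains were compared per length, and are given as CPM per kb of the principal annotated transcript. In KO the mean was 50.5 for Col11a1, 39.6 for Col16a1, 27.2 for Col3a1, 25.8 for Col1a1, 17.0 for Col1a2, 9.98 for Col12a1, 6.70 for Col5a2, 3.49 for Col5a1, 2.66 for Col14a1 and 2.41 for Col5a3. The ranges of all neighbours in this KO order overlapped. In WT the mean was 63.3 for Col16a1, 53.8 for Col1a1, 46.3 for Col11a1, 45.7 for Col3a1, 37.0 for Col1a2, 12.2 for Col5a2, 11.5 for Col12a1, 6.30 for Col5a1, 3.62 for Col14a1 and 3.20 for Col5a3. Among WT neighbours in that order, the ranges were apart only between Col1a2 and Col5a2 and between Col5a1 and Col14a1. Summed over the chains, CPM per kb was 186, 163, 225, 234 and 119 in KO 1 to KO 5 and 266, 229, 280.1 and 356 in WT 1 to WT 4, where KO 4 overlapped WT 2. With the length of all annotated exons in place of the principal transcript, Col1a2 averaged 7.32 in KO and 15.9 in WT. In KO this mean came just below that of Col12a1, 7.54, but the order held in only 2 of 5 libraries and the ranges overlapped. By that length Col16a1 had 30.6 and Col11a1 30.4 in KO, in this order in 2 of 5 libraries, and Col16a1 had 48.8 and Col1a1 48.6 in WT, in this order in 3 of 4.

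The share of each chain in this sum was compared next. Col11a1 made up 27.3% ± 6.45 of the summed CPM per kb in KO (SD, n = 5) and 16.8% ± 5.46 in WT (SD, n = 4). Of the type I chains, Col1a1 stood at 14.1% ± 3.29 in KO and 18.7% ± 2.27 in WT, and Col1a2 at 9.17% ± 1.51 in KO and 13.1% ± 1.68 in WT (SD). Col1a2 made up 6.83% to 10.7% in the KO libraries and 12.2% to 15.6% in the WT libraries, so these did not overlap. Col3a1 took 14.8% ± 2.96 in KO and 16.2% ± 1.17 in WT. The log2 ratio of Col11a1 to Col1a1 counts, chosen after its values were seen and therefore not tested, was 1.19, 1.23, 2.47, 0.52 and 1.26 in KO 1 to KO 5 and 0.90, 0.30, -0.07 and -0.47 in WT 1 to WT 4.

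**Figure D4:**
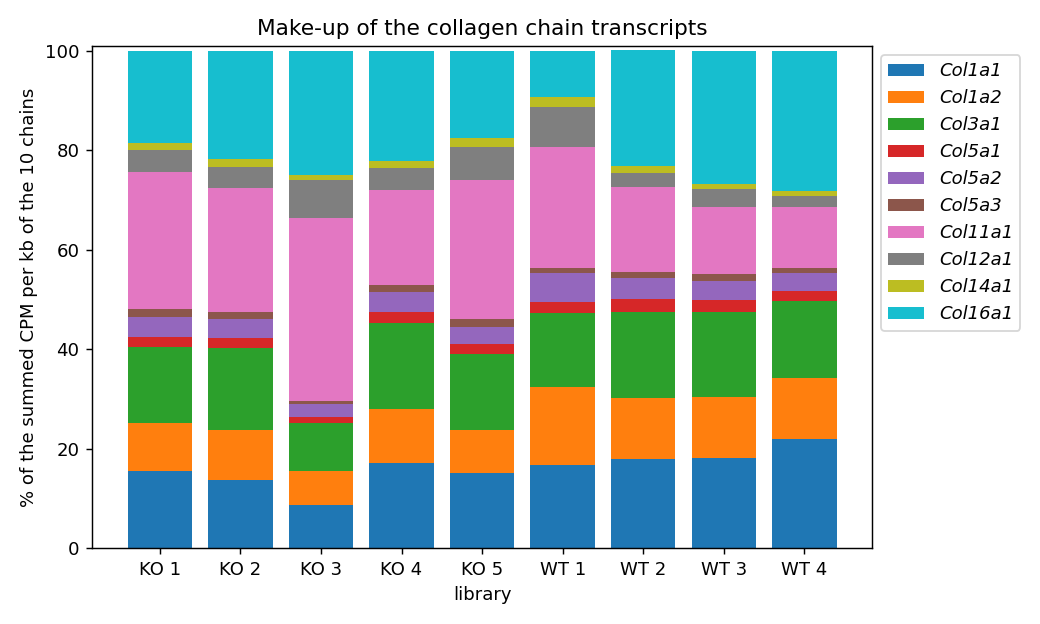
Share of each chain in the summed CPM per kb of the 10 chains (vertical axis, percent) for each library, KO left of WT. Col11a1 holds 19.1% to 36.9% in KO libraries and 12.3% to 24.4% in WT libraries, and WT 1 differs from the other WT libraries in a small Col16a1 share of 9.30%.

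Ratios between chains do not depend on library scaling, and 7 of them were compared by an exact two-sided permutation test over 126 assignments, with Benjamini-Hochberg adjustment over the 7. The 7 ratios were fixed with earlier results on single chains known, so their p-values are not independent of those results. None of the ratios passed. The closest was Col3a1 over Col1a1, whose log2 count ratio was -0.13, 0.18, 0.09, -0.08 and -0.08 in KO 1 to KO 5 and -0.26, -0.14, -0.17 and -0.59 in WT 1 to WT 4. Every KO library lay above every WT library, with a difference of 0.29 and the smallest p that the permutations can give (exact p = 0.00794, adjusted p = 0.0556). The type I ratio of Col1a1 to Col1a2 averaged 0.74 ± 0.19 in KO and 0.66 ± 0.30 in WT (SD, n = 5 and 4; exact permutation p = 0.667, adjusted p = 0.778). Per kb of transcript that is 1.52-fold more Col1a1 than Col1a2 in KO and 1.45-fold more in WT. With the length of all annotated exons the mean levels were further apart, at 23.3 for Col1a1 and 7.32 CPM per kb for Col1a2 in KO, and 48.6 for Col1a1 and 15.9 CPM per kb for Col1a2 in WT. Col5a1 over Col1a1 averaged -2.37 ± 0.07 in KO and -2.54 ± 0.30 in WT (adjusted exact permutation p = 0.402), and Col5a2 over Col5a1 0.60 ± 0.19 in KO and 0.59 ± 0.34 in WT (adjusted exact permutation p = 0.929). Col5a3 over Col5a1 averaged -1.03 ± 0.34 in KO and -1.46 ± 0.24 in WT (adjusted exact permutation p = 0.278). Col12a1 over Col1a1 had the widest spread between libraries, at -0.43 ± 0.74 in KO and -1.38 ± 0.95 in WT (adjusted exact permutation p = 0.352). Col14a1 over Col12a1 averaged -2.85 ± 0.67 in KO and -2.57 ± 0.53 in WT (adjusted exact permutation p = 0.778).

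**Figure D5:**
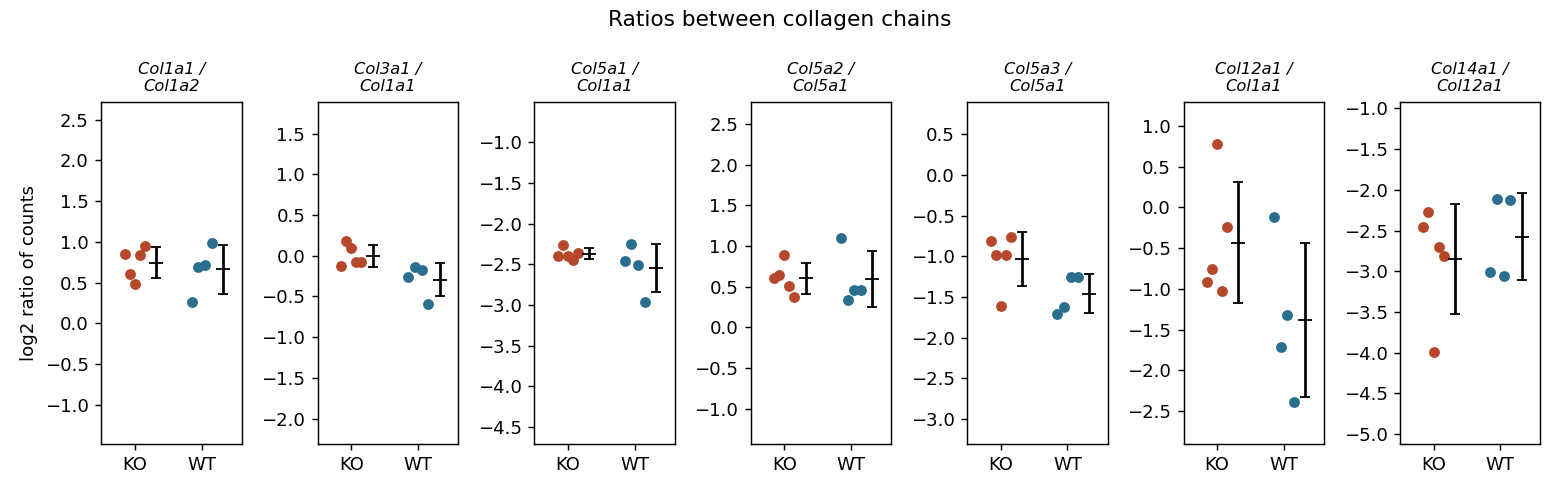
Log2 ratio of counts (vertical axis, a span of equal size in each panel) for the 7 chain pairs compared. Points are libraries, KO left and WT right, and bars are the mean with the SD. Groups are apart without overlap only for Col3a1 over Col1a1.

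Promoter windows were read to set the chains that were lower by DESeq2 beside others. The RefSeq table (GRCm38.p6) held windows of 300 bases around the start of Col1a2, Col3a1, Col5a1, Col5a3, Col11a1 and Col16a1, 6 of the 10. Col1a1, Col5a2, Col12a1 and Col14a1 are named only. The windows printed are those of Col1a2 and Col5a1, lower by DESeq2, of Col3a1, whose groups overlapped through 1 library, and of Col11a1, with a positive value. Capitals mark the CCAAT box, written CCAAT and read as ATTGG from the other strand. They also mark the TATA box, written TATAAA and read as TTTATA from the other strand, and the GC box, written GGGCGG and read as CCGCCC from the other strand. These letters do not overlap each other in the windows shown, and each window runs 5′ to 3′ on the gene's strand. Col1a2 is at chr6:4505368-4505667, Col5a1 at chr2:27886175-27886474, Col3a1 at chr1:45311288-45311587 and Col11a1 at chr3:114030290-114030589, all on the plus strand.
Col1a2: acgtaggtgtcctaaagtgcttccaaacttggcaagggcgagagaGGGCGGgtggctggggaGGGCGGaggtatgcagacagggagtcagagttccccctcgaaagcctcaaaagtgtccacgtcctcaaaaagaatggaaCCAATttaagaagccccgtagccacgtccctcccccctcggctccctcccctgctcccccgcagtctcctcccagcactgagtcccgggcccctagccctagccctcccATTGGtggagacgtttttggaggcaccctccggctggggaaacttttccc
Col5a1: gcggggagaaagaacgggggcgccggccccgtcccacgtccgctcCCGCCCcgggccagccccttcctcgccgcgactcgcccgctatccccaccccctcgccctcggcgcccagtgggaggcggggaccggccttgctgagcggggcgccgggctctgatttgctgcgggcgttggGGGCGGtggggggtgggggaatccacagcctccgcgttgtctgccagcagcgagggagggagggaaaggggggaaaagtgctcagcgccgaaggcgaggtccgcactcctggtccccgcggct
Col3a1: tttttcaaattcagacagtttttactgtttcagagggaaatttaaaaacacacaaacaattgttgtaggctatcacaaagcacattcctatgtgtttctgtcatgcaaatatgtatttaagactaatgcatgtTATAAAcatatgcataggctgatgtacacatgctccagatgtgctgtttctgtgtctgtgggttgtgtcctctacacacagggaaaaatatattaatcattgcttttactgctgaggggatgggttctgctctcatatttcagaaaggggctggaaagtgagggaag
Col11a1: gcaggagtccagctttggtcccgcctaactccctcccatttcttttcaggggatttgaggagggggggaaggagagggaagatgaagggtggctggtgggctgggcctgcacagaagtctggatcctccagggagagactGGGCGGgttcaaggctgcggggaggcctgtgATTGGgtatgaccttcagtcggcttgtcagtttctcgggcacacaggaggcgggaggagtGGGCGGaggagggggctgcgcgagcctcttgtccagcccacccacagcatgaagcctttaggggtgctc

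The CCAAT box, bound by the factor NF-Y, was in 4 of the 6 windows (Col1a2, Col5a3, Col11a1 and Col16a1), against 37.4% of all 32851 windows. A GC box, the letters that Sp1 family factors recognise, was in 5 of the 6, against 35.7% of all windows. The letters of a TATA box were in Col3a1 alone, beginning at position -117 from the start, against 13.6% of all windows. The Col1a2 window begins at 4505368, inside the annotated gene, which begins at 4504814, so its start is not that of the gene entry. Letters outside the windows were not read, so a box missing from a window may lie beyond it. The Col3a1 window was 37.7% G and C, while that of Col5a1 was 75.0%. The matches describe the letters of these windows, not bound sites.

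Collagen chains depend on a set of partners, and these were read from lists of genes by role. The fibril-binding proteoglycans and glycoproteins had negative log2 fold changes for 13 of 13 genes tested, their median was -0.72, and edgeR called none. Every KO library lay below every WT library for 2 of the 13, against 1.26% of all genes. Biglycan (Bgn), a small proteoglycan on fibrils, stood at 15.1 to 25.5 CPM in KO and 30.1 to 92.1 CPM in WT without overlap (log2 fold change -1.23 ± 0.31 SE, edgeR adjusted p = 0.415, DESeq2 adjusted p = 0.0456). Sparc, a collagen-binding glycoprotein, stood at 28.7 to 66.5 CPM in KO and 77.4 to 249.8 CPM in WT, also apart (log2 fold change -1.26 ± 0.34 SE, edgeR adjusted p = 0.482). Decorin (Dcn), which binds fibrils and limits their fusion, stood at 7.01 to 16.1 CPM in KO and 6.27 to 105 CPM in WT, with WT 2 at 105 CPM, and its log2 fold change was -1.84 ± 0.64 (SE; adjusted p = 0.616 by edgeR). Without WT 1 the median of this list was -0.41, whereas that of the 10 chains was -0.77.

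Next came the genes that fold, modify and process procollagen. Of 18 folding and hydroxylation genes tested, 15 had negative values. The median log2 fold change was -0.33, and -0.04 when WT 1 was left out. Every KO library lay below every WT library for 1 of the 18, against 1.26% of all genes. Colgalt1, which adds galactose to hydroxylysine of collagen, stood at 119 to 150 CPM in KO and 156 to 270 CPM in WT without overlap (log2 fold change -0.61 ± 0.16 SE, edgeR adjusted p = 0.451). Plod3, a lysyl hydroxylase, had -0.33 ± 0.14 and the galactosyltransferase Colgalt2, at 1.13 CPM in KO and 2.85 CPM in WT, had -1.30 ± 0.59 (SE). Of 9 genes for propeptide removal and crosslinking, 7 had negative values, and the median was -0.72. Bmp1, the procollagen C-proteinase, averaged 35.1 ± 9.02 CPM in KO and 51.9 ± 9.93 CPM in WT (SD), and Loxl1, a lysyl oxidase family member, 3.83 ± 0.96 CPM in KO and 6.53 ± 2.19 CPM in WT (SD). Adamts3, a procollagen N-proteinase, had a positive value, at 40.9 ± 9.70 CPM in KO and 27.0 ± 3.40 CPM in WT (SD; log2 fold change 0.60 ± 0.18 SE, edgeR adjusted p = 0.596). No gene of either list was called by edgeR.

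Receptors, cleaving enzymes and regulators of the chains gave no edgeR call either. Of 8 collagen receptors 7 had negative values. Their median log2 fold change was -0.42, and 0.08 when WT 1 was left out. The smallest unadjusted p-values belonged to the inhibitory leukocyte receptor Lair1 (-0.68 ± 0.27 SE), the endocytic receptor Mrc2 (-0.61 ± 0.29 SE) and the integrin subunit Itga2 (-0.40 ± 0.22 SE). Of 5 collagen-cleaving enzymes 3 had negative values, the median being -0.34, or -0.07 when WT 1 was left out. Gelatinase Mmp2 stood at 7.52 to 17.8 CPM in KO and 16.8 to 47.7 CPM in WT (log2 fold change -1.24 ± 0.31 SE, edgeR adjusted p = 0.415, DESeq2 adjusted p = 0.0456), the collagenase Mmp13 at 1.55 CPM in KO and 3.50 CPM in WT, and the membrane-bound Mmp14 at 82.4 CPM in KO and 105 CPM in WT (means). The 16 regulators tested had a median of -0.10, or -0.06 without KO 1, with 13 negative. Among them the co-activator Wwtr1 (TAZ) had -0.24 ± 0.12, Creb3l1, which drives collagen transcription in secretory cells, -0.38 ± 0.22, and Sp1 -0.19 ± 0.11 (SE).

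The other fibrillar and fibril-associated collagens had no common direction. Of 10 with an entry, 7 had enough counts to be tested, 3 were negative and 4 positive, and their median log2 fold change was 0.03, or -0.27 to 0.25 with a library left out (the lowest without KO 4, the highest without WT 4). Col2a1, the main cartilage collagen, was sparse, at 1.15 to 4.73 CPM in KO and 3.49 to 13.5 CPM in WT (log2 fold change -1.45 ± 0.47 SE, edgeR adjusted p = 0.613). Type IX collagen, which in cartilage coats fibrils of types II and XI, was abundant. Col9a1 averaged 218 ± 65.7 CPM in KO and 240 ± 111 CPM in WT (SD, log2 fold change -0.13 ± 0.31 SE), and Col9a2 214 ± 50.0 CPM in KO and 176 ± 35.9 CPM in WT (SD, log2 fold change 0.28 ± 0.20 SE). Col9a1, like Col11a1, was highest in KO 3 within KO and in WT 1 within WT. The other type IX chains went the other way in KO: Col9a2 and Col9a3 were lowest in KO 3, at 140.5 and 89.3 CPM. Within WT, Col9a3 was lowest in WT 1, at 117 CPM, and Col9a2 in WT 3, at 137 CPM.

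Markers of fibroblasts, the main makers of collagen, also had mostly negative values. Of 11 fibroblast markers tested, 10 were negative, and Fap was positive at 0.35. The median log2 fold change of the 11 was -0.68, or -0.49 without WT 1. Summed CPM of the listed markers was 113 to 205 in KO and 112 to 537 in WT, where WT 2 was highest and WT 4 lowest. Gsn at 379 CPM and Dcn at 105 CPM made up most of the sum in WT 2. The list has 15 genes, Tcf21 had 0 counts in every library, and Dcn, Lum, Dpt and Fap also stand in partner lists. The receptor Pdgfrb averaged 6.33 ± 2.76 CPM in KO and 11.9 ± 4.59 CPM in WT, and podoplanin (Pdpn) 3.08 ± 0.52 CPM in KO and 4.96 ± 1.46 CPM in WT (SD). Pdgfra, another fibroblast receptor, averaged 15.3 ± 2.39 CPM in KO and 17.7 ± 5.71 CPM in WT (SD, log2 fold change -0.20). The mean log2 CPM of the 10 chains was 6.18 ± 0.34 in KO and 6.80 ± 0.20 in WT (SD). Minus that of the fibroblast markers it was 3.56 ± 0.32 in KO and 3.67 ± 0.44 in WT, a difference of -0.11. This mean joins chains with log2 fold changes from -1.12 (Col1a2) to 0.13 (Col11a1). The same subtraction gave a difference of 0.00 for endothelial, -0.02 for macrophage and -0.21 for pericyte and smooth muscle markers. It gave -0.43 for luminal, -0.56 for basal and -0.30 for chondrocyte and osteoblast markers. For adipocyte, Schwann cell and skeletal muscle markers it gave -0.435, -0.81 and -0.98, and for milk proteins 1.82. The part of fibroblast markers in the collagen result was not tested.

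Markers of other cell types were read in the same way, and the values named are log2 fold changes. The median was -0.39 for 11 pericyte and smooth muscle markers, which summed to 339 to 480.4 CPM in KO and 386 to 587 CPM in WT, with the channel subunit Abcc9 at -1.05, Cspg4 at -0.60 and the actin Acta2 at -0.42. For 11 endothelial markers, summing to 39.8 to 105 CPM in KO and 88.9 to 189 CPM in WT, it was -0.73, or -0.25 when WT 1 was left out, with Flt1 at -0.82, Emcn at -1.24 and Egfl7 at -0.73. The 11 macrophage markers, summing to 258 to 657 CPM in KO and 497 to 797 CPM in WT, had a median of -0.61, with Cd14 at -0.89, C1qc at -0.75 and C1qb at -0.61. The 13 luminal markers, summing to 3746 to 4731 CPM in KO and 4062 to 7707 CPM in WT, had a median of -0.47, with Cldn3 at -0.50, Elf5 at -0.34 and Cdh1 at -0.45, and the 8 basal markers -0.16, with Krt5 at -0.34 and Krt17 at 0.81. Without WT 2 the luminal median was -0.18 and the basal one 0.12, and the basal one was -0.25 without KO 3, -0.09 without KO 5 and -0.08 without WT 3. Adipocyte markers had a median of -0.10, with Lpl at -1.21, Cfd at -0.40 and Pnpla2 at -0.11, and skeletal muscle markers 0.40, with Tnnt3 at 0.67, Myh4 at 0.66 and Ckm at 0.40. With a library left out the adipocyte median took either sign, at -0.59 without KO 4 and 0.12 without WT 2. The skeletal muscle median was 0.25 without KO 3 or WT 4, 0.60 without WT 2 and -0.04 without both WT 1 and WT 4. The 3 chondrocyte and osteoblast markers tested had a median of -0.12, with Runx2 at 0.40 and Sox9 at -0.12, while Acan and Bglap did not exceed 0.42 CPM in any library and Matn1 had 0 counts. Their median was -0.05 without KO 3, -0.06 without WT 2 and -0.18 without WT 3. Schwann cell markers had a median of 0.22, or 0.08 without WT 1, with S100b at 0.48 and Mbp at -0.17. Milk proteins had -3.98, with Lalba at -1.55, Csn1s2a at -6.25 and Wap at -3.32, and without WT 1 and WT 4 the milk protein median was 0.11, the macrophage one -0.26 and that of the 10 chains -0.67. No gene of these marker lists was called by edgeR, while DESeq2 called Cd14 lower (adjusted p = 0.0423), Lpl lower (adjusted p = 0.0483) and 4 milk proteins lower. The part of these cell types in the collagen result was not tested.

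The genes outside the set whose log2 CPM over the 9 libraries most resembled the mean standardized profile of the 10 chains were named from 14582 genes by Pearson r, as a description with no test. They were Duoxa1 (r = 0.96), Tmprss4 (r = 0.93), Duox1 (r = 0.92), Msl3l2 (r = 0.92), Itga7 (r = 0.92) and Spon1 (r = 0.92). Duox1 encodes an oxidase that makes hydrogen peroxide and Duoxa1 its maturation factor, and the genes are neighbours on chromosome 2 (122315672 to 122347972 and 122302191 to 122313730). Duoxa1 stood at 0.684 to 5.78 CPM in KO and up to 11.9 CPM in WT, where WT 2 lay within the KO range, with KO 5 lowest and WT 4 highest as for many of the chains. Tmprss4 encodes a membrane serine protease (log2 fold change -0.84 ± 0.22 SE, edgeR adjusted p = 0.472), Itga7 a laminin-binding integrin subunit (-0.75 ± 0.37 SE) and Spon1 the secreted matrix protein spondin 1 (-0.60 ± 0.23 SE). None of the 6 passed the edgeR test over all genes.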

How the data were processed

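RNA of 9 dissociated tumors was depleted of ribosomal RNA and sequenced as stranded paired-end libraries, per the labels' protocols. The authors deposited raw counts per gene and library. Trimmomatic 0.36, FastQC 0.11.5, STAR 2.5.4a and GRCm38 are named per the submitters' processing notes, while the sources used here name neither annotation release nor strand setting. Fragments that name no gene (11.0% to 27.1% unmapped, 5.50% to 9.53% multimapped, 34.0% to 50.4% without a feature, 0.971% to 1.23% ambiguous) stayed out of library sizes and tests. Of 55401 gene identifiers, 54349 matched GENCODE M21 with version and 792 without, and 260 had no match. Of the chains, Col3a1 shares 141 exon bases with the miRNA gene Gm47302, and Col5a1 shares 99 and 113 with a pair of antisense transcripts. Whether reads on these shared bases were counted for the chains cannot be told without the strand setting and annotation.

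The test across genes was the quasi-likelihood F test of edgeR 4.0.16 under R 4.3.3 (TMM factors, filterByExpr, genotype as the only term, 14665 genes, Benjamini-Hochberg adjusted p under 0.05, two-sided). CPM uses totals over the tested genes times TMM factors, log2 CPM a prior count of 2, and chain ratios 0.5 added counts. SEs are the fold change over the square root of F. Members, lists and chain ratios were chosen with earlier results of these data known. Named genes are the members, the HSP72 genes, the 3 of smallest unadjusted p in each list and the 6 of most similar profile (average log2 CPM of at least 1). Pdgfra, Krt18, Col9a3, Gsn, Fap, Acan, Bglap, Matn1 and Tcf21 were added after their values were seen. One gene that the rule names is not reported here. Alternatives were DESeq2 1.42.0, limma-voom (limma 3.58.1), other scalings and filters, the replicate block, age and unmapped share as covariates, and libraries left out; the length of all exons and the left-out libraries for counts of groups apart were added after seeing the data. None of the 36 pairs of libraries agreed within counting noise (lowest chi-square per degree of freedom 6.24). The fits were tested on simulated data with 200 genes changed 2-fold or 4-fold. At 2-fold, edgeR called 104 of the changed genes and 8 others, DESeq2 142 and 25 others, and limma-voom 102 and 9 others. At 4-fold, edgeR called 186 and 8 others, and DESeq2 187 and 26 others.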

Additional observations from a re-analysis of the deposited data

Results flagged for a closer look

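Of 72 groups of 4 or 5 libraries examined for a library far from the others, 4 stood out, where chance gives about 1 in 20. The log2 count ratio of Col5a2 to Col5a1 was 1.10 in WT 1, against 0.34 to 0.47 in the other WT libraries. The ratio of Col5a3 to Col5a1 was -1.61 in KO 3, against -0.99 to -0.77 in the other KO libraries. The mean log2 CPM of the procollagen folding and hydroxylation genes was 5.86 in WT 1, against 4.86 to 4.95 in the other WT libraries, and that of the collagen receptors was 5.66 in WT 1, against 4.74 to 4.81.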

How the results depend on the processing

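The median log2 fold change of the 10 chains ran from -0.87 without KO 4 to -0.55 without WT 4 when libraries were left out in turn, and from -0.74 to -0.53 under the other alternatives. Members called were 3 by DESeq2 and 1 without a count filter (Col1a2), and 0 in every fit that left out a library. Genes called in all were 68 by DESeq2, 29 without a count filter and 6 when genes needed a mean count of 50. With a library left out they were 6 to 13, with 6 without KO 1, KO 4 or KO 5, 7 without KO 2 or WT 2 and 8 without WT 3. The number of chains with every KO library below every WT library was 4 to 5, with 5 without KO 4. That held for 1.26% of all genes with every library kept, 1.77% without KO 4 and 5.59% without WT 1 and WT 4. Over single left-out libraries the share of all genes ran from 1.55% without KO 2 to 3.21% without KO 5. Left-out libraries gave -0.13 to 0.33 for Col11a1 and -0.49 to 0.28 for Col12a1. Signs turned for Col11a1 with age as a covariate (-0.075) and without KO 3 (-0.13) and for Col12a1 without WT 1 (0.28) and without WT 1 and WT 4 (0.23), and the cause was not tested. Among the ratios, left-out libraries gave -0.073 to 0.18 for Col5a2 over Col5a1, -0.44 to 0.009 for Col14a1 over Col12a1, -0.057 to 0.19 for Col1a1 over Col1a2, 0.19 to 0.34 for Col3a1 over Col1a1, 0.03 to 0.27 for Col5a1 over Col1a1, 0.35 to 0.57 for Col5a3 over Col5a1 and 0.62 to 1.37 for Col12a1 over Col1a1, none called. Level per kb moved by more than the SD between libraries for 9 of 20 values with all exons. Libraries of the same number share only that number: the correlation of their deviations was -0.02, 0.38, 0.11 and 0.38 for numbers 1 to 4, and WT 1 and WT 3 both matched KO 3 best. With the number as a replicate block 10 genes and 0 members were called, with a median of -0.53. The sparsest chain, Col5a3, had 416 counts in KO and 387 in WT.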

Other observations

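Per kb of transcript, Col11a1 exceeded Col1a1 in 5 of 5 KO libraries and 1 of 4 WT libraries (WT 1) by the principal transcript. By the length of all annotated exons it did so in 4 of 5 KO libraries and 0 of 4 WT libraries. Among genes read after their values were seen, the type IX chain Col9a3 averaged 153 ± 35.9 CPM in KO and 150 ± 44.8 CPM in WT (SD, n = 5 and 4), and the transcription factor Sox10, known from neural crest and also from mammary epithelium, 395 ± 88.5 CPM in KO and 376 ± 98.3 CPM in WT. Sox9, which drives type II, IX and XI collagen genes in cartilage, stood at 136 to 195 CPM in KO and 162 to 210 CPM in WT. The cartilage proteoglycan Acan stayed at 0 to 0.171 CPM in KO and 0 to 0.418 CPM in WT. Which cells carry Col11a1 and the type IX chains cannot be read from bulk tumors.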
